A study of Mus musculus with 6 samples.

Results

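The genes described here encode 8 surface molecules through which antigen-presenting cells and T cells stimulate or restrain each other: Cd80, Cd86, Icosl, Cd274, Pdcd1lg2, Cd40, Cd83 and Cd28. They were chosen by name, as every row of the 6 transcript tables that carries any of these symbols, and all 8 were found among 24394 symbols. Their levels are FPKM (fragment numbers corrected for transcript length and library depth), summed over the rows of a symbol.

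Bone marrow-derived macrophages (BMMs) of C57BL/6 mice at postnatal day 28 were grown from marrow cells passed through a monocyte isolation kit, over 7 days in macrophage colony-stimulating factor at 50 ng/ml. Of the 6 libraries, 3 are of cells left without fragments (control macrophages) and 3 of cells kept for 24 h with cartilage fragments at a ratio of 5 fragments to a macrophage (stimulated macrophages), cartilage and marrow being from the same mice. The comparison asks what a macrophage changes in its RNA when it meets cartilage fragments. Neither the labels nor the methods say that the 3 cultures of a group came from separate animals, so the p-values measure the spread between these libraries, which may be technical.

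The values rest on 699237 to 776371 fragments per library, as estimated from the coverage in the files. The methods state a read number per sample many times larger, and the origin of this gap was not tested. Fragment numbers, counting intervals and floors given here hold for the estimated fragments only. On average over the libraries a single fragment was worth 0.329 FPKM for Cd28, the longest transcript of the 8, and 0.910 FPKM for Cd80. At this depth the weaker of the 8 genes had fewer than 10 fragments in most libraries. Of 8 markers of the labelled cell type, the most abundant were Lyz2 at 26780.4 to 37369.7 FPKM, Cd68 at 1089 to 1281 FPKM and Csf1r at 565 to 669.9 FPKM. The weakest was Fcgr1, at 5.13 to 12.7 FPKM over the 6 libraries. The methods give male mice, while Xist stood at 19.8 to 23.6 FPKM in all 6 libraries and Ddx3y, Eif2s3y, Kdm5d and Uty, which lie on the Y chromosome, had no fragment in any.

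A T cell that recognizes antigen needs additional signals from the presenting cell, and these pass through pairs of surface molecules. CD80 and CD86 bind CD28, which stimulates the T cell, and CTLA-4, which restrains it. ICOSL binds ICOS, whereas PD-L1 (encoded by Cd274) and PD-L2 (encoded by Pdcd1lg2) bind the inhibitory receptor PD-1. All of these ligands belong to the B7 family. CD40 is a receptor of the TNF receptor superfamily on the presenting cell itself, which receives CD40 ligand from activated T cells and signals through TRAF proteins to NF-kB. CD83 is a surface marker of activated dendritic cells.

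The start sites of Cd274 and Icosl are shown first, since these were the ligands with the most fragments. The 250 bases before each start were taken from RefSeq (GRCm38.p6, the build that mm10 also names), where entries for Cd80 and Pdcd1lg2 were found as well, so that 4 of the 8 genes matched. The region of Cd274 is chr19:29367188-29367437 and that of Icosl is chr10:78069118-78069367, both on the plus strand, and each ends 1 base before the first base of the transcript in the files. The RefSeq gene record of Cd274 begins 5331 bases further upstream and that of Cd80 1503 bases, so that distances here refer to the start of the transcript in the files. Capitals mark matches to the motifs named after the sequences.
Cd274: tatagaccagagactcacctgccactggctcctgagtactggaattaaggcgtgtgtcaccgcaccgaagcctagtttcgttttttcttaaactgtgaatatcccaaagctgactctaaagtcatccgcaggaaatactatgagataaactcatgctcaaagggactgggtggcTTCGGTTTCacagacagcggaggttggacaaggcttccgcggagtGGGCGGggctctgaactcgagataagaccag
Icosl: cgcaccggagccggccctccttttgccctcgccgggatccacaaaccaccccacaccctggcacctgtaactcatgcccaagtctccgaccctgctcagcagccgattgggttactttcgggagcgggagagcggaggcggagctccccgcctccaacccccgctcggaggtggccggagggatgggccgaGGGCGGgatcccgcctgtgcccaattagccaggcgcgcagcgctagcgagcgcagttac

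The GC box (GGGCGG) began 31 bases before the start of Cd274 and 59 bases before that of Icosl, and 32.7% of 32851 such regions hold it on either strand. The core of an interferon response element (GAAANNGAA, in 7.13% of all regions) matched on the minus strand of Cd274, from 76 bases before the start, and in none of the other 3 regions. The AP-1 site (TGANTCA, in 6.75%) matched 42 bases before the start of Cd80 alone of the 4. A GAS site (TTCNNNGAA, in 7.02%), the core of an NF-kB site (GGANTTTCC, 1.07%), a TATA box (TATAAA, 12.4%) and a PU.1 site (GAGGAAGT, 2.44%) had no match in any of the 4, where both strands were searched, and no match says only that these letters are absent from the window. The motifs do not overlap each other in these regions. The region of Icosl held 68.8% G and C with 23 CG pairs, and that of Cd274 50.4% with 11, where the median of all regions was 52.4% with 6.

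Of the 8 genes, 7 reached the minimum mean of 1 FPKM and were tested with limma on log2(FPKM + 0.1). None of the 7 passed an adjusted p of 0.05, where 38 of 10393 tested genes did (0.366%, with 0.308% higher and 0.0577% lower in stimulated macrophages), and 4 of the 7 had an unadjusted p under 0.05, where 9.19% of all tested genes had. In 3 genes (Icosl, Cd86 and Cd40) the lowest stimulated value was above the highest control value, and in Cd28 the highest stimulated value was below the lowest control value, whereas among all tested genes 9.04% were separated upward and 6.89% downward. On estimated fragments scaled to the depth of the library, an alternative unit, 1 gene passed, Cd28, where 236 of 11257 genes did (2.10%, with 1.36% higher and 0.737% lower). The median log2 fold change of the 7 genes was 0.27, and that of all tested genes was 0.0037. For any gene taken alone, 3 libraries against 3 allow no two-sided exact permutation p below 0.1.

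**Figure D1:**
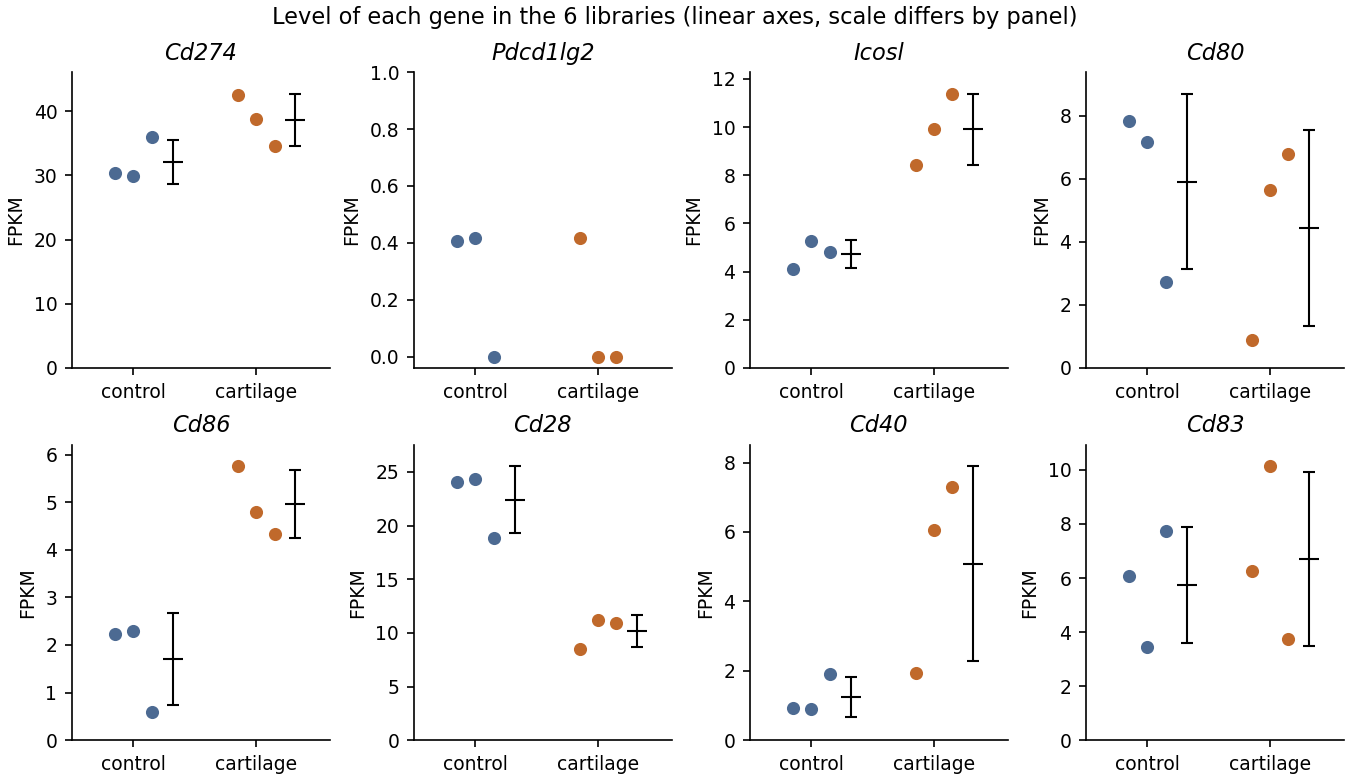
FPKM of the 8 genes (linear axis from 0, a separate scale in each panel) in the 3 control and the 3 stimulated (marked cartilage) libraries, with points for libraries in the order of replicate number and a bar for the mean ± SD, which is left out for Pdcd1lg2 because it is listed at 0 in some libraries. The groups are separate for Icosl, Cd86, Cd28 and, narrowly, Cd40, and overlap for the others.

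Cd28 was the gene of the 8 with the clearest difference, and its level was lower in stimulated macrophages. Its values were 24.0, 24.4 and 18.8 FPKM in control replicates 1 to 3 and 8.48, 11.2 and 10.9 FPKM in stimulated replicates 1 to 3. The highest stimulated library thus stood well below the lowest control library. The means were 22.4 ± 3.10 FPKM (SD, n = 3) and 10.2 ± 1.50 FPKM (SD, n = 3), and the log2 fold change was -1.13 (SE 0.20, 95% confidence interval -1.59 to -0.67), with an adjusted p of 0.0924 in limma, which misses the threshold. On scaled fragments the log2 fold change was -1.14 and the adjusted p was 0.000121. The paper's own comparison, made with Cuffdiff, lists Cd28 among the genes significantly lower with cartilage fragments. The difference rests on 210 fragments in the controls against 91 in stimulated macrophages, that is, 2.21 times as many per depth in the controls (95% interval of the ratio 1.72 to 2.85, which covers counting error only). Bulk RNA cannot tell fewer cells that carry a transcript from less of it in each cell.

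CD28 is best known as the T cell receptor of CD80 and CD86, so the T cell markers were read in the same libraries. Cd28 has a single transcript in the files (NM_007642, 4317 bases, chr1:60746388-60773359, plus strand), and the annotation has no other gene there. Of 10 T cell markers with a row, Cd3d, Cd3e, Cd3g, Cd247 and Cd8a had no fragment in any of the 6 libraries. The 10 markers together had 35 fragments in the controls and 35 in stimulated macrophages, and their summed level ranged from 3.08 to 9.07 FPKM in control and from 4.18 to 8.78 FPKM in stimulated libraries. Nearly all of it was Cd4, with 29 and 33 fragments, while Lck had 3 and 1 and Thy1 had 1 and 1. The Cd28 fragments outnumbered those of all 10 T cell markers together in both groups, without correction for transcript length. Which cells the Cd28 fragments came from was not tested.

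Downstream of CD28, the kinases and adaptors of T cell signalling were read as a fixed list of 14 genes. Grap2, Prkcq, Themis, Cd3e and Zap70 had no fragment. Among the 7 tested genes none passed the threshold of limma and 1 had an unadjusted p under 0.05, as 9.19% of all tested genes had. The median log2 fold change was 0.09, and 2 (Lcp2 and Pik3ap1) lay higher in every stimulated library, as did 9.04% of all tested genes. The most abundant were Grb2, an adaptor of many receptors (97.8 to 116 FPKM in control and 101 to 121 FPKM in stimulated libraries), Pik3ap1, an adaptor of phosphoinositide 3-kinase (75.9 to 93.5 FPKM and 99.1 to 105 FPKM), and Vav1, a guanine nucleotide exchange factor of immune cells (45.0 to 65.5 FPKM and 53.2 to 61.9 FPKM).

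Icosl, the ligand of ICOS, was the ligand whose groups stood furthest apart relative to their spread. It was found at 4.09, 5.26 and 4.81 FPKM in control replicates 1 to 3 and at 8.44, 9.91 and 11.4 FPKM in stimulated replicates 1 to 3. All stimulated libraries were above all controls. The mean was 4.72 ± 0.589 FPKM (SD, n = 3) in control and 9.91 ± 1.46 FPKM (SD, n = 3) in stimulated macrophages, a log2 fold change of 1.05 (SE 0.23, 95% confidence interval 0.51 to 1.59) with an adjusted p of 0.147 in limma and of 0.0940 on scaled fragments. In fragments this was 8, 10 and 9 against 16, 18 and 20, a ratio per depth of 2.09 (95% interval 1.29 to 3.45). The gene lies at chr10:78069368-78079525 on the plus strand, with a single transcript in the files (NM_015790) and no overlapping gene.

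Cd86 was the weaker of the pair of CD28 ligands in control macrophages. Its level was 2.23, 2.29 and 0.582 FPKM in control replicates 1 to 3 and 5.75, 4.80 and 4.34 FPKM in stimulated replicates 1 to 3. The groups did not overlap, although control replicate 3 rested on 1 fragment. The log2 fold change was 1.69 (SE 0.54, 95% confidence interval 0.43 to 2.94), with an adjusted p of 0.376 in limma and of 0.164 on scaled fragments. Over the 3 libraries there were 9 fragments in control and 25 in stimulated macrophages, a ratio per depth of 2.91 (95% interval 1.31 to 7.07). The files place the transcript (NM_019388) at chr16:36603869-36666077 on the minus strand.

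Cd80 binds the same receptors as Cd86, and its values did not separate the groups. They were 7.82, 7.17 and 2.73 FPKM in control replicates 1 to 3 and 0.899, 5.63 and 6.77 FPKM in stimulated replicates 1 to 3. Control replicate 3 and stimulated replicate 1 were low, with 3 fragments and 1 fragment. The log2 fold change was -0.68 (SE 0.76, 95% confidence interval -2.45 to 1.09, adjusted p 0.820 in limma), and without stimulated replicate 1 it was 0.20. The interval holds changes of either sign. The transcript (NM_009855) lies at chr16:38458933-38486932 on the plus strand, on the same chromosome as Cd86.

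The balance of the pair can be read within each library. Cd86 made up 22.2%, 24.2% and 17.6% of the summed FPKM of Cd80 and Cd86 in control replicates 1 to 3, and 86.5%, 46.0% and 39.0% in stimulated replicates 1 to 3. Every stimulated share was above every control share. In fragments the shares were 4 of 13, 4 of 12 and 1 of 4 in control and 10 of 11, 8 of 14 and 7 of 14 in stimulated libraries, and the exact Clopper-Pearson 95% interval of every stimulated library overlapped that of every control library. The overlap was narrow for stimulated replicate 1 (58.7% to 99.8%) with control replicates 1 (9.09% to 61.4%) and 2 (9.92% to 65.1%), and wide for stimulated replicate 3 (23.0% to 77.0%). No test of the share was made.

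Cd274, which encodes PD-L1, was the most abundant of the 8 genes in every library, above 79.6% of all tested genes by its mean. Its level was 30.3, 30.0 and 36.0 FPKM in control replicates 1 to 3 and 42.6, 38.7 and 34.5 FPKM in stimulated replicates 1 to 3. Stimulated replicate 3 lay below control replicate 3, so the groups overlapped. The mean was 32.1 ± 3.40 FPKM (SD, n = 3) in control and 38.6 ± 4.03 FPKM (SD, n = 3) in stimulated macrophages, a log2 fold change of 0.27 (SE 0.15, 95% confidence interval -0.08 to 0.62) with an adjusted p of 0.650 in limma. With 250 and 287 fragments this gene had the best precision of the 8, and its interval reaches no further up than 0.62 on the log2 scale. The ratio of fragments per depth was 1.20 (95% interval 1.01 to 1.43, which covers counting error only). The transcript (NM_021893) lies at chr19:29367438-29388094 on the plus strand. An antisense gene, AC119228.1, overlaps it in the GENCODE annotation, and reads of the pair can be told apart only if strand was used in the counting. The methods name a stranded library kit, but whether strand was used in the counting is not stated in the sources used here.

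Pdcd1lg2, the gene of PD-L2, lies next on the same strand of chromosome 19 (chr19:29410919-29472927, NM_021396) and was barely detected. It had 1 fragment in control replicates 1 and 2 and in stimulated replicate 1 (0.405, 0.416 and 0.418 FPKM), and was listed at 0 in the other 3 libraries. With a mean of 0.207 FPKM it was not tested. A count of 0 allows up to 3 fragments, here 1.26 FPKM on average, so the libraries at 0 do not show that the transcript was absent. The antisense gene A930007I19Rik overlaps it.

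Summed over the 5 ligands of the B7 family, the level was 44.8, 45.1 and 44.1 FPKM in control replicates 1 to 3 and 58.1, 59.1 and 57.0 FPKM in stimulated replicates 1 to 3. The sums of a group lay within a few FPKM of each other, although Cd80 and Cd274 each varied by more among the same libraries. Cd274 supplied 66.5% to 81.6% of the sum in control and 60.6% to 73.3% in stimulated libraries, ranges that overlap. The share of Icosl was 9.12% to 11.7% in control and 14.5% to 19.9% in stimulated libraries, ranges that do not. Cd28, on the receptor side, stood at 0.523 to 0.813 of the level of Cd274 in control and at 0.199 to 0.316 in stimulated libraries.

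**Figure D2:**
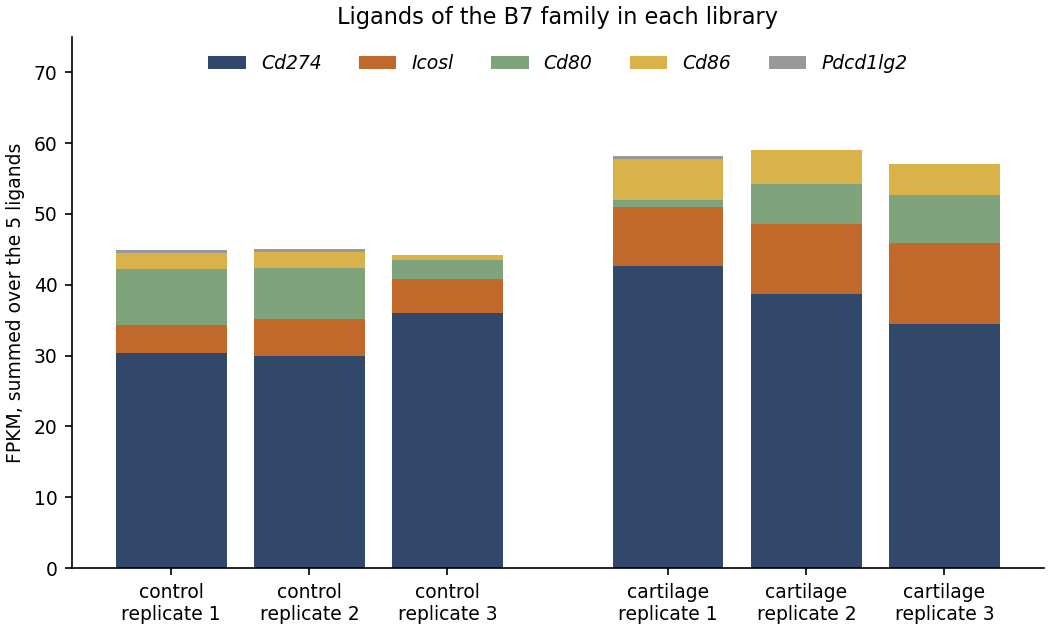
FPKM of the 5 ligands of the B7 family, stacked in each of the 6 libraries (bars start at 0, and cartilage marks the stimulated libraries). The stacks reach 44.1 to 45.1 FPKM in control and 57.0 to 59.1 FPKM in stimulated libraries, with Cd274 the largest block in each.

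Cd40 was the least expressed of the 7 tested genes in the mean of all libraries. Its level was 0.934, 0.908 and 1.92 FPKM in control replicates 1 to 3 and 1.93, 6.05 and 7.28 FPKM in stimulated replicates 1 to 3. Control replicate 3 and stimulated replicate 1 each held 2 fragments and hardly differed, while the other stimulated libraries stood apart. The log2 fold change was 1.82 (SE 0.60, 95% confidence interval 0.43 to 3.21), with an adjusted p of 0.396 in limma and of 0.469 on scaled fragments. There were 4 fragments in control and 15 in stimulated macrophages, a ratio per depth of 3.92 (95% interval 1.25 to 16.2). Of the 5 transcripts listed for Cd40 (chr2:165055636-165071654, plus strand), NM_170702 carried all fragments of the 3 stimulated libraries, whereas the 4 fragments of the controls were spread over 4 transcripts. Transcripts of one locus share most of their exons, and so few fragments do not show which was present.

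Cd83 did not differ beyond the spread of its libraries. Its values were 6.06, 3.46 and 7.72 FPKM in control replicates 1 to 3 and 6.27, 10.1 and 3.75 FPKM in stimulated replicates 1 to 3. The highest and the next to lowest of the 6 values both came from stimulated libraries. The log2 fold change was 0.18 (SE 0.43, 95% confidence interval -0.82 to 1.18, adjusted p 0.925 in limma), and it became -0.17 without stimulated replicate 2 and -0.14 without control replicate 2. The fragments came to 25 in control and 28 in stimulated macrophages. Both transcripts of Cd83 (chr13:43785112-43803133, plus strand) were summed, since they differ by few bases in length (2134 and 2141).

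**Figure D3:**
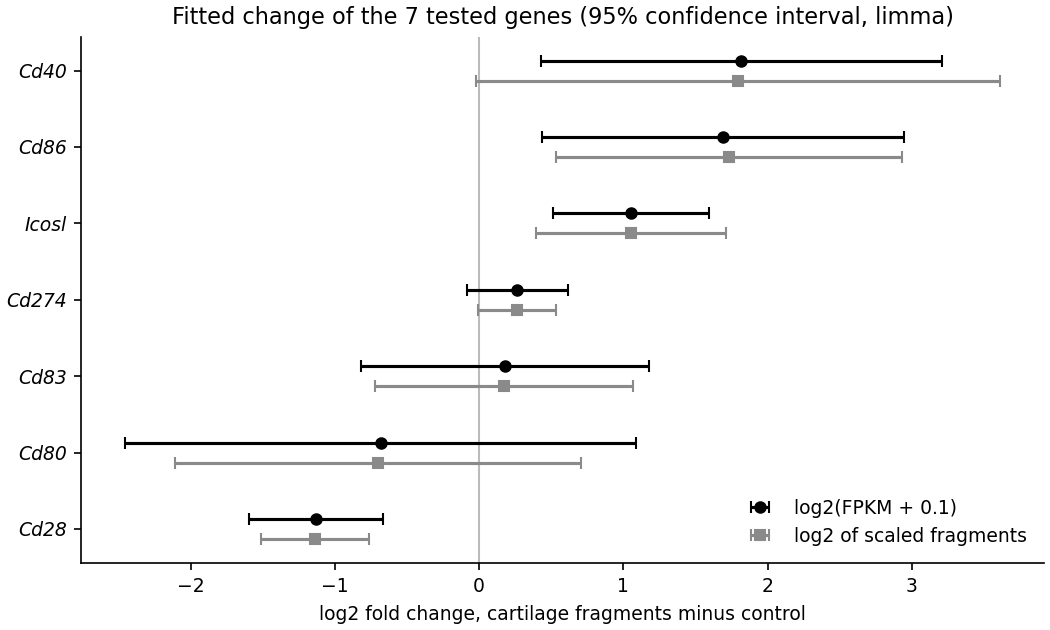
Fitted log2 fold change (stimulated minus control) of the 7 tested genes with its 95% confidence interval, for log2(FPKM + 0.1) as black circles and for log2 of scaled fragments as grey squares. The intervals of Cd28, Icosl and Cd86 leave out 0 in both units, and that of Cd40 holds 0 on scaled fragments (-0.02 to 3.61).

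Levels per transcript length can be ordered within each group. In control macrophages the order was Cd274, Cd28, Cd80, Cd83, Icosl, Cd86, Cd40 and Pdcd1lg2, in which the ranges of Cd80, Cd83 and Icosl overlapped from neighbour to neighbour, as did those of Cd86 and Cd40. In stimulated macrophages Cd274 remained first, above all libraries of the next gene, and Pdcd1lg2 last. The 6 genes between them (Cd28, Icosl, Cd83, Cd40, Cd86 and Cd80, in order of the mean) overlapped from each to the next. Cd28 and Icosl, which in control macrophages stood at 22.4 and 4.72 FPKM, stood at 10.2 and 9.91 FPKM in stimulated macrophages.

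Apart from Cd28, counter-receptors of the 8 molecules were read as a fixed list of 5 genes, of which 4 were not detected. Ctla4, Pdcd1, Icos and Cd40lg had no fragment in any library. Rgmb, which encodes a partner of PD-L2 and a co-receptor of bone morphogenetic proteins, was at 2.14 to 4.96 FPKM in control and 3.46 to 8.29 FPKM in stimulated libraries (log2 fold change 0.56, SE 0.44, adjusted p 0.751 in limma). Among the B7 genes outside the 8, Vtcn1, Btn1a1, Btn2a2 and Btnl2 had no fragment. Cd276 was at 3.05 to 5.38 FPKM in control and 2.35 to 8.10 FPKM in stimulated libraries. Vsir, the gene of the inhibitory molecule VISTA, is listed under its older name 4632428N05Rik and stood at 174 to 179 FPKM in control and 163 to 176 FPKM in stimulated libraries, several times the level of Cd274 (log2 fold change -0.08, SE 0.08, adjusted p 0.799 in limma).

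Of the costimulatory TNF superfamily only Tnfsf9 and Tnfrsf14 were tested, and neither passed the threshold. Of 7 ligands 4 (Tnfsf8, Tnfsf14, Tnfsf18 and Cd70) had no fragment, and Tnfsf4 had 1. Tnfsf9, the ligand of 4-1BB, had 3 fragments in control and 7 in stimulated macrophages, and Tnfsf15 had 5 and 15. The groups of both did not overlap in FPKM, as was so upward for 9.04% of all tested genes, and few fragments stand behind any library. Tnfsf15, at a mean of 0.816 FPKM, was itself below the minimum for testing. Of the 6 receptors, Tnfrsf14, which binds BTLA and LIGHT, was the only tested gene, at 13.8 to 18.9 FPKM in control and 23.2 to 37.9 FPKM in stimulated libraries (log2 fold change 0.91, SE 0.23, adjusted p 0.216 in limma). Tnfrsf8 had 1 fragment in control and 2 in stimulated macrophages, and Tnfrsf18 had 1 and 0.

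Genes of CD40 signalling were all expressed, and 16 of 16 were tested. None passed the threshold of limma on FPKM, and 5 had an unadjusted p under 0.05. Their median log2 fold change was 0.17, and 5 of 16 (Traf1, Nfkb2, Relb, Birc3 and Tnfaip3) lay higher in every stimulated library while Ikbkb lay lower. On scaled fragments 3 passed. Of all tested genes 9.04% were separated upward, 6.89% downward, and 9.19% had an unadjusted p under 0.05 in limma. On scaled fragments 2.10% of all genes passed. Tnfaip3, an inhibitor of NF-kB signalling that is itself an NF-kB target, was at 16.5, 17.4 and 13.5 FPKM in control and 27.0, 29.2 and 31.0 FPKM in stimulated replicates 1 to 3 (log2 fold change 0.88, SE 0.17, adjusted p 0.113 in limma and 0.000554 on scaled fragments). Nfkb2, the p100 precursor of the alternative NF-kB pathway, was at 33.2, 30.8 and 30.0 FPKM in control and 49.1, 53.1 and 45.7 FPKM in stimulated replicates 1 to 3 (log2 fold change 0.65, SE 0.13, adjusted p 0.123 and 0.00728). Birc3, an inhibitor of apoptosis that binds TRAF proteins, was at 25.8 to 45.8 FPKM in control and 47.8 to 56.5 FPKM in stimulated libraries (adjusted p 0.381 and 0.0113). Rela, the third by level in the list, was at 27.2 to 42.1 FPKM and 31.1 to 41.4 FPKM. Many other receptors signal through the same genes, and the part of CD40 in these values was not tested.

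**Figure D4:**
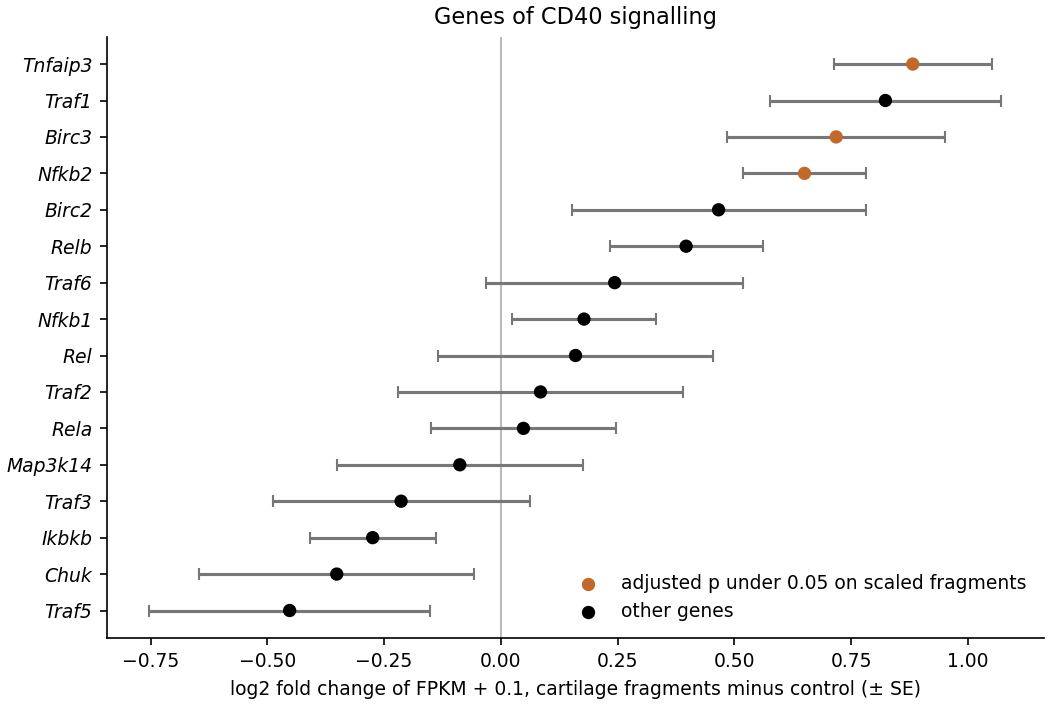
Log2 fold change of FPKM + 0.1 (stimulated minus control, ± SE) of the 16 genes of CD40 signalling, in orange where the adjusted p on scaled fragments is under 0.05. Tnfaip3, Birc3 and Nfkb2 are the 3 orange points, with values of 0.88, 0.72 and 0.65.

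Of 23 other surface molecules between antigen-presenting cells and T cells 16 were tested, none passed on FPKM in limma (3 at an unadjusted p under 0.05), their median log2 fold change was 0.06, and 5 lay higher in every stimulated library. The most abundant were Sirpa, the receptor of CD47 (527 to 554 FPKM in control and 564 to 567 FPKM in stimulated libraries), the SLAM receptor Ly9 (270 to 291 FPKM and 287 to 289 FPKM) and Cd48 (222 to 233 FPKM and 235 to 274 FPKM). On scaled fragments 2 passed. Of all tested genes 9.04% were separated upward and 9.19% had an unadjusted p under 0.05 in limma. On scaled fragments 2.10% of all genes passed. Icam1, the adhesion ligand of LFA-1, was at 36.7 to 41.8 FPKM in control and 60.1 to 110 FPKM in stimulated libraries (log2 fold change 0.91, SE 0.23, adjusted p 0.209 in limma and 0.00117 on scaled fragments). Lair1, an inhibitory receptor for collagen, was at 18.2 to 21.4 FPKM and 28.0 to 39.1 FPKM (log2 fold change 0.71, SE 0.18, adjusted p 0.200 and 0.0116).

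Of the proteins that set the surface level of these molecules, Cmtm6, which keeps PD-L1 at the cell surface, was at 54.1, 51.0 and 53.1 FPKM in control and 44.3, 46.2 and 44.6 FPKM in stimulated replicates 1 to 3 (log2 fold change -0.23, SE 0.11, adjusted p 0.599 in limma). Its groups did not overlap, as was so downward for 6.89% of all tested genes. Its relative Cmtm4 was at 4.08 to 5.78 FPKM and 4.98 to 6.14 FPKM. Ctsb, a lysosomal protease, was at 1744 to 1843 FPKM in control and 1659.7 to 1712 FPKM in stimulated libraries, a log2 fold change of -0.09 (adjusted p 0.550 in limma and 0.0436 on scaled fragments). The median of these 3 tested genes was -0.09, and none passed on FPKM in limma, adjusted or not. A further list held 10 transcription factors and kinases, taken as possible drivers of the 8 genes. None of them passed on scaled fragments, where Batf3 was not tested. On FPKM in limma none passed, adjusted or not, and their median was 0.02. The most abundant were Spi1 (297 to 325 FPKM in control and 299 to 314 FPKM in stimulated libraries), Irf5 (113 to 126 FPKM and 106 to 108 FPKM) and Jak1 (61.9 to 76.6 FPKM and 66.7 to 74.5 FPKM).

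Among the markers of cell types, Adgre1, the macrophage marker F4/80, was the only gene to pass on FPKM, at 350 to 373 FPKM in control and 524 to 566 FPKM in stimulated libraries (log2 fold change 0.59, SE 0.06, adjusted p 0.00965 in limma). All 8 macrophage markers were tested, with a median of 0.12. On scaled fragments Itgam passed as well, at 346 to 362 FPKM in control and 404 to 437 FPKM in stimulated libraries (log2 fold change 0.26, SE 0.06, adjusted p 0.182 in limma on FPKM and 0.000172 on scaled fragments). Of 8 dendritic cell markers Flt3 and Cd209a had no fragment, Itgax, which macrophages also carry, was at 71.9 to 89.5 FPKM in control and 67.2 to 77.4 FPKM in stimulated libraries, Clec9a had 5 fragments in each group and Zbtb46 had 1 and 3. The markers of B cells had 11 fragments in control and 7 in stimulated macrophages, nearly all Cd79b (8 and 6), with Ebf1 at 3 and 1. Those of NK cells had 0 and 1 (Klrb1c), and those of mast cells and basophils 3 and 7 (Mcpt8 2 and 3, Cpa3 1 and 1, Ms4a2 0 and 3). Of 7 neutrophil markers with a row, the most abundant were S100a9 at 429 to 469 FPKM and 329 to 502 FPKM, S100a8 at 250 to 382 FPKM and 333 to 454 FPKM and Ngp at 50.5 to 75.3 FPKM and 47.9 to 84.8 FPKM. The groups overlapped for each of these. Ltf had 175 fragments in control and 138 in stimulated macrophages, Camp 12 and 19, Mpo 4 and 1 and Elane 1 and 0. Markers of chondrocytes, the cells of cartilage, had 29 fragments in control and 19 in stimulated macrophages (Col2a1 10 and 6, Col11a1 12 and 9, Comp 3 and 2, Sox9 2 and 2, Acan 2 and 0). The other markers of that list (Col9a1, Matn1, Matn3, Hapln1 and Lect1) had no fragment. The part of any of these cells in the levels of the 8 genes was not tested.

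For the 2 most abundant of the 8 genes, the tested genes with the most similar course over the 6 libraries were looked for among 5523 genes of 10 FPKM or more in the mean. This is a description of 6 points that share library and treatment. Closest to Cd28 were Susd3 (Pearson's r 0.994, mean 71.4 FPKM in control and 48.3 FPKM in stimulated libraries), Arhgef6 (0.993, 42.2 and 27.2 FPKM) and Slc6a6 (0.991, 219.5 and 187.7 FPKM). All 3 were lower in the mean of stimulated libraries, which follows from their being picked for likeness to Cd28. Closest to Cd274 were 1110008P14Rik (r 0.984, 38.5 and 64.9 FPKM), Ctgf (0.978, 40.8 and 44.0 FPKM) and Pgd (0.970, 570.0 and 607.9 FPKM).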

How the data were processed

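RNA-seq libraries of 3 control and 3 stimulated macrophage cultures were used, grouped by their labels. The authors used TopHat and Bowtie to align 100-bp paired reads with mm10, and the deposited FPKM and coverage are the output of Cufflinks for each transcript of a library (versions not given in the sources used here). Assembled transcripts were assigned to the symbol that shares their Cufflinks gene identifier, where it held only 1 symbol. Those under several symbols or none were left out, and they held 7.03% to 10.4% of the summed FPKM of a library. No assembled transcript lay at the 8 genes. FPKM were summed per symbol. Fragments per gene were estimated from the deposited coverage, the read length and a mean fragment length of 210 to 224 bases. That length was chosen in each library as the one that made most low values whole. The values used were those below 8 fragments, of longer reference transcripts whose symbol has 1 row. At the chosen length 94.5% to 95.0% of them were whole within 0.1, which is therefore no independent check of the estimates. Intervals and floors cover counting error only. Starts have 1 added, since the files count from 0. March1 and March8 were left out because names of that form read as dates in the files, and Trbc1, Trbc2, Trac, Ighm and Ly6g had no row.

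On log2(FPKM + 0.1) the groups were compared for genes with a mean of 1 FPKM or more by limma 3.58.1 under R 4.3.3 (two-sided, robust, with trend), with Benjamini-Hochberg adjustment over 10393 genes, which understates changes of weakly expressed genes. The procedure was also run on simulated data, with changes set only in genes above a minimum of fragments. The outcome is not given here and says little about the weaker of the 8 genes. In all, 32 genes were higher and 6 lower. The 8 genes, the lists, the alternatives (among them scaled fragments) and the naming rule were chosen with earlier results of these data known. The rule names the 8 genes, the genes of each list past the threshold, the 3 most abundant of each list, and the 3 genes most similar to each of the 2 most abundant of the 8. Other genes were named after their values were seen. Tables and intervals came from Python 3.11.15 (scipy 1.17.1, numpy 2.4.6 and pandas 2.3.3), and figures from matplotlib 3.10.9.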

Additional observations from a re-analysis of the deposited data

How the results depend on the processing

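Over 19 alternatives the number of the 8 genes past the threshold was 0 in all but scaled fragments, where it was 1 (Cd28). The number of listed pathway genes past it was 0 in FPKM and 6 on scaled fragments (Lair1, Icam1, Nfkb2, Birc3, Tnfaip3 and Ctsb), and the number of all genes rose from 38 to 236 (153 higher and 83 lower, against 32 and 6). The unit, the genes tested and the moderation of the variances fitted to them change together in that alternative, and the cause was not tested. For Cd28 the SE was 0.20 on FPKM and 0.18 on scaled fragments. All genes past the threshold numbered 18 without trend and robust moderation, 19 with reference transcripts only, and 9 to 30 with 1 library left out (9 without stimulated replicate 1, 19 without stimulated replicate 2 and 22 without control replicate 1). For Cd28 the adjusted p lay between 0.000121 and 0.271 over the 19, with a negative log2 fold change in each. The paper's list of changed genes, from Cuffdiff, holds Cd28 as lower and no other of the 8 genes. It also holds Icam1, Birc3 and Lcp2 as higher, which did not pass on FPKM here. With 1 library left out, the log2 fold change of Cd80 ranged from -1.19 to 0.20 (positive without stimulated replicate 1) and that of Cd83 from -0.17 to 0.54 (-0.14 without control replicate 2, and lowest without stimulated replicate 2). No scaling moved the median of all genes by over 0.1. Replicate numbers recur in both groups, and libraries of the same number did not deviate together (r -0.0179, -0.0024 and 0.0099). At this depth such values cannot show whether those libraries shared mice or a batch, which the labels and methods do not state. With the replicate block 18 genes passed and 0 of the 8, with an adjusted p of 0.220 for Cd28. Depth as estimated from coverage, which is far below the read number in the methods, limits Cd40, Cd80, Cd83, Cd86 and Pdcd1lg2, none of which had over 28 fragments in a group.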
